A study of Drosophila melanogaster with 6 samples.

Results

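The expression of 10 transcription factor genes that pattern the wing pouch was measured in sorted cells of control and regenerating wing imaginal discs. The genes were nub, pdm2, rn, vg, sd, salm, salr, bi, Optix and dve, taken by their symbols from an mRNA-seq table of 14239 genes, and all 10 were found. The wing disc is the larval epithelium that forms the adult wing and notum, and its pouch is the region that becomes the wing blade. Control and ablated discs (3 replicates each) both carried 1 copy of nub-GFP, an enhancer trap in the nub locus, as well as rn-Gal4 and the temperature-sensitive repressor Gal80ts. Only the ablated discs also carried UAS-rpr, so that the pro-apoptotic gene reaper was expressed in the rn domain during 24 h at 30 °C. Larvae of both groups were otherwise held at 18 °C, went through the same shift early in the third larval instar, and were collected after 24 h of recovery, when the ablated discs had formed a regeneration blastema. GFP-positive cells were isolated by FACS, and each replicate pooled many discs.

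The wing pouch is built by a hierarchy of factors. Vestigial (Vg) and the TEAD protein Scalloped (Sd) together form the wing selector complex, which the Notch and Wingless signals of the dorsal-ventral boundary and the Dpp signal of the anterior-posterior boundary switch on. The POU proteins Nubbin (Nub) and Pdm2 and the zinc finger protein Rotund (Rn) are expressed across much of the pouch. Within it, Dpp activates salm, salr and optomotor-blind (bi) around the center, and Optix marks territory outside the salm domain. The nub domain extends into the distal hinge, so a sort on nub-GFP can include hinge cells.

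The values were FPKM, fragments scaled by transcript length and library size, and the authors' table holds 1 value per group over its 3 replicates. A difference between groups therefore has no replicate check, and no p-value or SD is given for it. Ratios are ablated over control FPKM on the log2 scale with no pseudocount. A gene was counted as past the threshold at a log2 ratio of at least 1.3 or at most -1.3, the size used in the study. Background shares past it also count genes at 0 in 1 group, which have no finite ratio. All background shares were taken over the 8437 genes whose FPKM averaged 1 or more. Across these genes the median log2 ratio was -0.04, with percentile 5 at -0.77 and percentile 95 at 1.22. Summed over all genes, FPKM came to 1081834 in the control and 889990 in the ablated group. Scaling both to the same sum would raise every log2 ratio by 0.28, and no member's direction changes with it. FPKM do not give the reads behind a single gene, so the counting error of a value is unknown. All 10 members averaged at least 1 FPKM and were above 0 in both groups.

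In the control pouch the 10 genes spanned from 8.10 FPKM (salm) to 89.9 FPKM (nub), and 7 of them lay above the median of the 8437 genes. In the blastema they spanned from 0.21 FPKM (Optix) to 95.02 FPKM (sd). Of the 10, 7 were lower and 3 were higher in ablated cells, against a background of 52.8% of genes lower and 46.8% higher. Past the threshold, Optix and dve were lower and no member was higher, where 2.13% of all genes were lower and 4.49% higher by that much. The median log2 ratio of the members was -0.68. Summed over the 10 genes, the level was 432.9 FPKM in control and 313.7 FPKM in ablated cells.

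**Figure D1:**
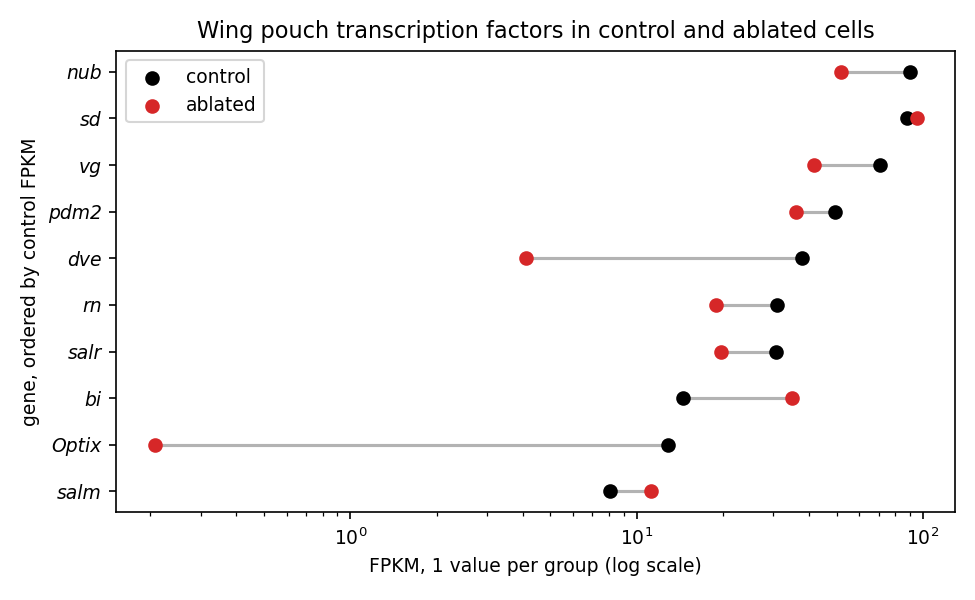
FPKM of the 10 genes in control (black) and ablated (red) cells on a log axis, 1 pooled value per group over 3 replicates, so no error bar is drawn. Optix and dve have the longest connecting lines, sd has the shortest, and bi, salm and sd are the 3 genes whose ablated value lies to the right of the control value.

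The POU gene nub, whose locus drives the GFP used for sorting, was the most abundant member in control cells. Its level was 89.9 FPKM in control and 51.8 FPKM in ablated cells, 57.6% of control (log2 ratio -0.80). The listed locus of nub (FBgn0085424) lies on chromosome 2L from 12587871 to 12628143 in release 5 of the genome, which all coordinates given here follow. Those of nub, pdm2, rn and sd are each shared with an overlapping gene, so the ends may not be the gene's own. Because both groups were gated on nub-GFP, the nub value describes cells chosen for expression from this locus. In such bulk samples, fewer cells expressing a gene and less RNA per cell cannot be told apart. Its paralog pdm2 (FBgn0004394, chromosome 2L, 12657829 to 12686313) encodes a related POU protein. The listed loci of nub and pdm2 are separated by 29.7 kb with no other gene of the table between them. Expression of pdm2 was 49.3 FPKM in control and 36.1 FPKM in ablated cells (log2 ratio -0.45). The pdm2 level was thus 0.55 of the nub level in control cells and 0.70 of it in the blastema.

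The gene rn, which encodes a Krüppel-type zinc finger protein and whose Gal4 insertion drove the ablation, was at 31.0 FPKM in control and 18.9 FPKM in ablated cells. The blastema value was 60.9% of control (log2 ratio -0.72). The listed locus of rn (FBgn0267337) lies on chromosome 3R from 3099460 to 3135119, and both groups carried the driver. Relative to nub, the rn level was 0.34 in control and 0.36 in ablated cells, close to the same proportion.

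The selector partners vg and sd were of similar abundance in control cells and diverged in the blastema. The level of vg (FBgn0003975, chromosome 2R, 8771794 to 8786900), whose product has no DNA-binding domain of its own and acts through Sd, was 71.0 FPKM in control and 41.8 FPKM in ablated cells (log2 ratio -0.76). For sd (FBgn0003345, chromosome X, 15700276 to 15719755) it was 87.6 FPKM in control and 95.02 FPKM in ablated cells (log2 ratio 0.12). The sd mRNA level was therefore 1.23 times the vg level in control cells and 2.27 times that level in the blastema. With its value in the blastema sd ranked number 1 of the 10 genes. In control cells nub had ranked number 1, but with sd at 0.97 of the nub level their order there cannot be told without a spread between replicates. The release 6 annotation lists 22 transcripts for sd, and the FPKM is a total over its isoforms.

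The genes nub, pdm2, rn, vg and salr, had log2 ratios in a narrow band between -0.80 and -0.45. None of these 5 passed the threshold. Their ratios lay low among the 8437 genes, from percentile 4.63 for nub to percentile 15.8 for pdm2. These genes were grouped after their values were seen, so the narrow band is a description of that choice.

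**Figure D2:**
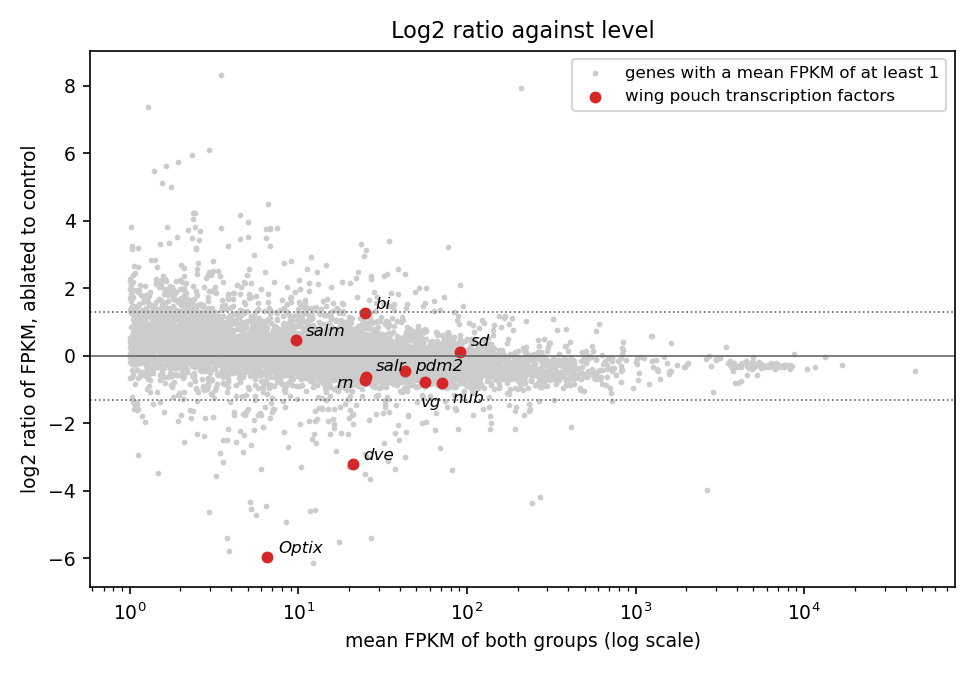
Log2 ratio of ablated to control FPKM against the mean FPKM of both groups (log axis) for genes that average at least 1 FPKM (grey) and the 10 wing pouch genes (red), with dotted lines at the threshold of 1.3 in each direction. Optix at -5.96 and dve at -3.21 lie far below the lower line, bi at 1.26 lies just under the upper line, and nub, vg, rn, salr and pdm2 lie inside the grey cloud, below 0 and above the lower line.

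Among the genes that subdivide the pouch along the anterior-posterior axis, the paralogs salr and salm, which encode zinc finger proteins activated by Dpp, had ratios of opposite sign. The level of salr (FBgn0000287, chromosome 2L, 11365305 to 11373397) was 30.6 FPKM in control and 19.6 FPKM in ablated cells (log2 ratio -0.64). For salm (FBgn0261648, chromosome 2L, 11434311 to 11445603) it was 8.10 FPKM in control and 11.2 FPKM in ablated cells (log2 ratio 0.47). The genes are separated by 60.9 kb with no other gene of the table between them. As a proportion, salr was 3.78 times as abundant as salm in control cells and 1.75 times as abundant in the blastema.

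The T-box gene bi (FBgn0000179, chromosome X, 4306889 to 4378485), a Dpp target with a wider domain than salm, was the member with the highest ratio. Its level was 14.5 FPKM in control and 34.9 FPKM in ablated cells, 2.40-fold higher in the blastema. The log2 ratio of 1.26 stood at percentile 95.3 of all genes and just under the threshold. It passes 1.3 when ratios are centered on the median of all genes (1.303) or the summed FPKM are made equal (1.55). Dpp targets of the central pouch thus had no common direction, with bi and salm higher and salr lower. The bi level was 0.48 of the salr level in control cells and 1.78 times that level in ablated cells.

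Optix, a Six-family homeobox gene that Sal proteins repress in the central pouch, had the log2 ratio of largest size among the 10. It was at 12.9 FPKM in control and 0.21 FPKM in ablated cells, which is 62.3-fold lower (log2 ratio -5.96). Of all 8437 genes only 1 had a lower finite ratio. The control level stood at percentile 42.5 of these genes, the blastema level at percentile 0.21. The gene (FBgn0025360) lies on chromosome 2R from 3919138 to 3930041. The low blastema value makes the size of the ratio uncertain. With 1 FPKM added to both groups the log2 ratio was -3.53.

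The homeobox gene defective proventriculus (dve), which is expressed in the pouch and takes part in patterning along the proximal-distal axis, was the other member below the threshold. The level was 37.9 FPKM in control and 4.11 FPKM in ablated cells, 9.22-fold lower (log2 ratio -3.21). It ranked number 27 from the lowest finite ratio among the 8437 genes, and it lies on chromosome 2R from 18131468 to 18173982 (FBgn0020307). In control cells dve was at 1.23 times the rn level, whereas in the blastema it was at 0.22 of the rn level. The value of dve with 1 FPKM added was -2.93. The paper also reports lower dve in regenerating discs from imaging of a dve-lacZ enhancer trap.

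The order of the 10 levels was nub, sd, vg, pdm2, dve, rn, salr, bi, Optix and salm in control cells. In the blastema it was sd, nub, vg, pdm2, bi, salr, rn, salm, dve and Optix. The places of vg and pdm2 were the same in both orders, dve moved from place 5 to place 9, and bi moved from place 8 to place 5. Neighbors as close as rn and salr, at 31.0 and 30.6 FPKM in control and 18.9 and 19.6 FPKM in ablated cells, cannot be ordered without a spread between replicates. The same holds for nub and sd in control cells, at 89.9 and 87.6 FPKM.

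Expressed relative to nub in the same group, a scale chosen after the values were seen, every log2 ratio is raised by 0.80. On it, 95.4% of the genes with a finite ratio are above 0. The vg level was 0.79 of nub in control and 0.81 in ablated cells, and that of salr was 0.34 and 0.38. In contrast, bi was at 0.16 of nub in control and 0.67 in ablated cells, salm at 0.090 and 0.22, and sd at 0.97 and 1.83. On the same scale Optix was at 0.14 and 0.0040, and dve at 0.42 and 0.079. On this scale the log2 ratios of pdm2, rn, vg and salr turn positive, at 0.34, 0.08, 0.03 and 0.16, while Optix and dve stay negative.

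**Figure D3:**
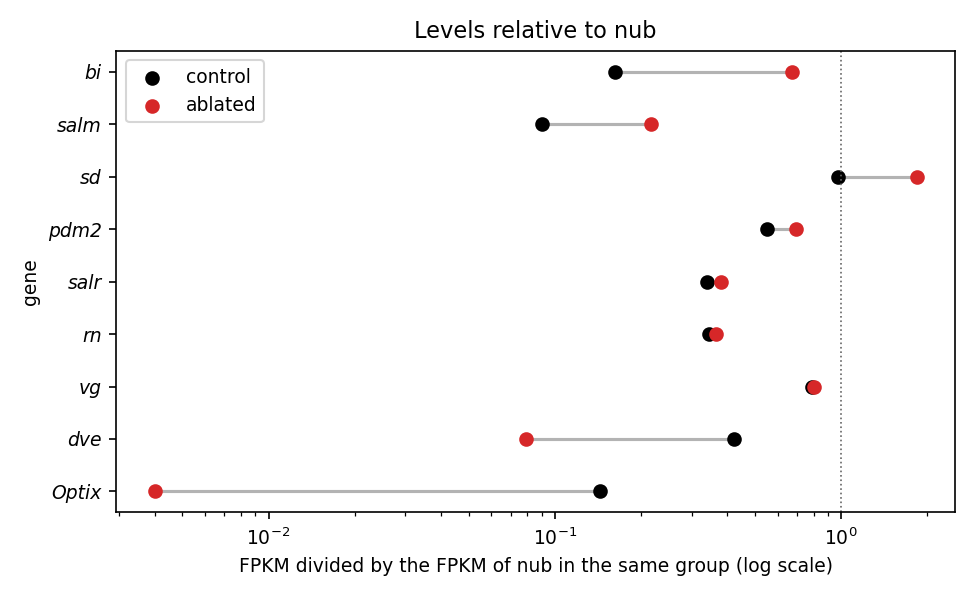
FPKM of the other 9 genes divided by the FPKM of nub in the same group, on a log axis, for control (black) and ablated (red) cells, with 1 value per group and a dotted line at equality with nub. The points of vg, rn and salr nearly coincide, those of bi, salm and sd move to the right, and those of dve and Optix move to the left.

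The loci differ in how far their reads could be confused with other genes. Of the 10 loci, 6 overlap no other gene of the table, which includes Optix, dve, bi and vg. The 5 genes that overlap nub, pdm2, rn or sd were all under 0.5 FPKM in both groups, the highest being CG42544 in the rn locus at 0.41 FPKM in control and 0.37 FPKM in ablated cells. The members have long listed loci, with a median span of 24.0 kb against 3.29 kb over all genes of the table, and bi is the longest at 71.6 kb. The listed loci of nub, pdm2, rn and sd are shared with the overlapping genes.

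Partners of the members were compared next. The cofactor gene nab, whose product binds Rn, was at 47.6 FPKM in control and 17.8 FPKM in ablated cells (log2 ratio -1.42). It was at 1.54 times the rn level in control cells and at 0.95 of it in the blastema. The genes for the Sd partners were nearer to equality. The growth coactivator gene yki was at 91.3 FPKM in control and 82.2 FPKM in ablated cells (log2 ratio -0.15), and the corepressor gene Tgi, listed as CG10741, was at 46.8 and 61.4 FPKM (log2 ratio 0.39).

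Among genes of the signals that act on the members, all 7 of the dorsal-ventral boundary list were higher in ablated cells, where 46.8% of all genes were, but none passed the threshold and the median log2 ratio was 0.25. The ligand gene wg was at 16.4 FPKM in control and 26.2 FPKM in ablated cells (log2 ratio 0.67), while Ser (log2 ratio 0.09) and Dl (log2 ratio 0.12) encode the Notch ligands and were near equality. Of 6 genes of the Dpp list, 3 were higher and 3 lower, near the background share. Their median log2 ratio was 0.40, and 1 gene was higher past the threshold, where 4.49% of all genes were. That gene was the ligand gene dpp, at 6.77 FPKM in control and 18.2 FPKM in ablated cells (log2 ratio 1.43). The receptor gene tkv was at 96.3 and 96.0 FPKM. The repressor gene brk, whose product opposes Dpp at salm and bi, was at 8.88 FPKM in control and 15.6 FPKM in ablated cells (log2 ratio 0.81), and its locus in the table overlaps 13 other genes.

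Other genes expressed in parts of the pouch had a median log2 ratio of -0.39, and 7 of 9 were lower in the blastema, 1 of them past the threshold, against 52.8% and 2.13% of all genes. The vein patterning gene kn, which marks the central intervein region, was at 19.0 FPKM in control and 6.06 FPKM in ablated cells (log2 ratio -1.65). The homeobox gene Dll, active in the distal pouch, was at 21.4 and 9.47 FPKM (log2 ratio -1.18), and the intervein gene bs at 22.8 and 14.2 FPKM (log2 ratio -0.68). E2f and fj were the genes of this list that were higher, with log2 ratios of 0.57 and 0.39.

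Markers of neighboring tissue were checked against the pouch label. The pouch markers nub, rn, vg and Dll were expressed in both groups and were lower in ablated cells. Both groups were gated on nub-GFP, and nub, rn and vg are themselves members, so they give no independent check of the label. The members sd, salm and bi were higher in ablated cells, with log2 ratios of 0.12, 0.47 and 1.26. In ablated cells Dll, at 9.47 FPKM, was below the median of 16.97 FPKM over the 8437 genes. The hinge gene hth was also expressed in both groups, at 100.7 FPKM in control and 129.0 FPKM in ablated cells. The hinge list split. The genes Sox15, zfh2, tio, tsh and hth were higher in ablated cells, with log2 ratios of 1.89, 1.53, 1.38, 1.01 and 0.36. By contrast, the T-box genes Doc1, Doc2 and Doc3, which lie near each other on chromosome 3L, were lower, with log2 ratios of -3.005, -3.31 and -1.59. Over the 8 hinge genes the summed level was 255.4 FPKM in control and 340.6 FPKM in ablated cells, and the median log2 ratio was 0.68. Of 8 notum genes 6 were higher and 1 passed the threshold, against 46.8% and 4.49% of all genes, with a median of 0.77 and sums of 87.8 and 122.8 FPKM. The differences between these lists and the wing pouch genes could not be tested with 1 value per group.

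Genes of adepithelial myoblasts, the muscle precursors below the notum, were low in control cells and higher in the blastema. All 6 (twi, Mef2, Him, htl, stumps and zfh1) were higher, and none was at 0. Their summed level was 6.005 FPKM in control and 34.9 FPKM in ablated cells. Among all genes averaging at least 1 FPKM, 46.8% were higher and 4.49% were higher past the threshold. Of the 6, htl and zfh1 averaged less than 1 FPKM, and the other 4 passed the threshold. The largest single value was 12.7 FPKM for Mef2 in the blastema. Tracheal genes were mixed, with trh at 21.8 FPKM in control and 3.64 FPKM in ablated cells and btl at 1.07 and 3.33 FPKM, and the 3 genes summed to 26.6 and 12.8 FPKM. The 5 hemocyte genes summed to 1.19 and 2.98 FPKM, with NimC1 listed at 0 in control cells. The nub-GFP gate is meant to leave out notum cells and myoblasts. For the accuracy of the sort the paper cites earlier work, which used qPCR for genes active inside and outside the pouch. No such check of the present replicates is described. In the paper's imaging of regenerating discs, Twist antibody staining and a zfh1 enhancer trap were not elevated. The paper calls zfh1 hinge-specific. It proposes that hinge cells turning into pouch cells may account for some of the genes not elevated in imaging. The part of hinge, notum and myoblast RNA in the levels of the wing pouch genes was not tested.

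**Figure D4:**
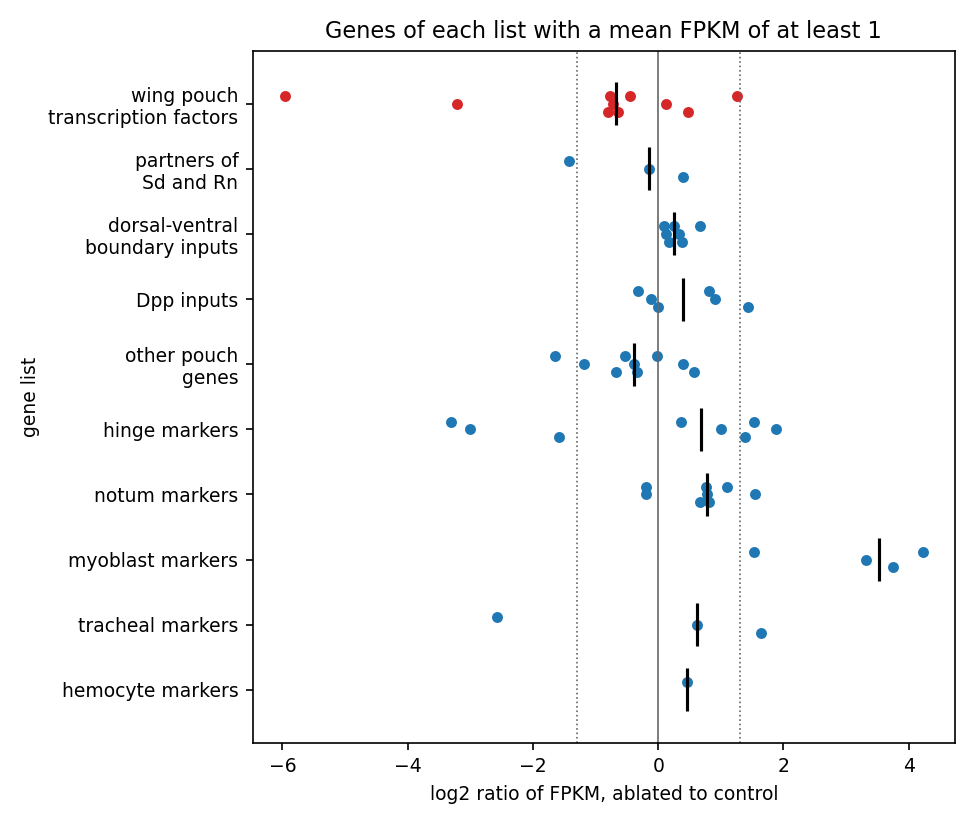
Log2 ratio of ablated to control FPKM for each gene averaging at least 1 FPKM in the wing pouch list (red) and the 9 other lists (blue), with the median of each list as a black bar and dotted lines at the threshold of 1.3 in each direction. The wing pouch genes reach from -5.96 to 1.26 around a median of -0.68, the dorsal-ventral boundary genes stay between 0.09 and 0.67, the hinge list splits into 3 low and 5 high genes, and the 4 myoblast genes shown lie above 1.3. The hemocyte list is drawn from srp alone.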

How the data were processed

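Per the paper's methods, the authors trimmed and clipped the reads, used Tophat2 to align them to release 5 of the genome and its gene models, and obtained FPKM from Cufflinks with bias and multi-read correction. The submitters' processing notes list TopHat2 0.6 and Cufflinks 0.0.7. The deposited FPKM are Cuffdiff's group values after geometric library normalization, 1 per group over 3 replicates. The columns with the authors' own fold changes, test statistics, p-values and q-values were not used. Library preparation was stranded, but the use of strand in counting is not given in the sources used here.

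Log2 ratios were computed with Python 3.11.15, numpy 2.4.6 and pandas 2.3.3, figures with matplotlib 3.10.9, and the ratio and threshold steps were tested on simulated data. A listed value of 0 may be a failure of estimation, because abundant genes such as RpL15 have it. Gene IDs came from a release 6 name table, and coordinates are those of the listed loci in release 5, counted from 1. The members and lists were chosen with earlier results of these data known. All 10 members are named, and genes of other lists are named by size of ratio or where a list is described gene by gene. The 2 symbols Tgi and NimC1 were matched through synonyms. Alternatives were pseudocounts of 0.1 and 1 FPKM, centering on the median, equal summed FPKM, no minimum mean FPKM or one of 5, thresholds of 1.0 and 1.5, and leaving out overlapping loci. Scaling to nub, and subtracting the median of the 501 genes nearest in mean FPKM, were added after the values were seen. Sequences were not analysed here.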

Additional observations from a re-analysis of the deposited data

How the results depend on the processing

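Optix and dve stayed past the threshold and lower under all 11 alternatives, and sd and salm stayed higher and under it wherever they had a value (sd overlaps another gene and drops out without overlapping loci). The filters on mean FPKM, the other thresholds and leaving out overlapping loci do not change a gene's ratio by construction. Only the pseudocounts and the rescalings could move it. The number of wing pouch genes higher past the threshold went from 0 to 1, the gene bi, with centering on the median (log2 ratio 1.303), equal summed FPKM (1.55), a threshold of 1.0, centering on genes of similar level (1.36) and scaling to nub (2.06). Scaling to nub adds 0.80 to every log2 ratio, so that any gene between -0.80 and 0 turns positive by construction. It reversed pdm2 (0.34), rn (0.080), vg (0.031) and salr (0.16), the median of the 10 genes (0.12), the median of the other pouch genes (0.41) and that of the partners of Sd and Rn (0.64). It also brought the medians of hinge (1.48), notum (1.57) and tracheal (1.42) genes past the threshold, and left 3 genes of the other lists lower and 21 higher past it, against 6 and 10 in the values as deposited. On that scale 0.80% of the genes with a finite ratio were lower and 17.1% higher past the threshold. In the values as deposited the shares were 2.13% and 4.49%, which also count genes at 0 in 1 group. The list counts ran over genes averaging at least 1 FPKM: 3 partner, 7 dorsal-ventral boundary, 6 Dpp, 9 other pouch and 8 hinge genes. Added to these were 8 notum, 4 myoblast and 3 tracheal genes and 1 hemocyte gene. The median of the 3 partner genes was also above 0 with equal summed FPKM (0.13) and with centering on genes of similar level (0.15). For tracheal genes the median turned to -2.58 with a mean FPKM of at least 5 and to -0.98 without overlapping loci, where fewer genes remained. The hemocyte median was the value of srp alone, the only 1 of the 5 genes averaging at least 1 FPKM. It was -0.083 with centering on genes of similar level, and 2.52 with no filter, where genes of lower mean FPKM entered. No fit that leaves out a replicate was possible, since the FPKM are group values. No paired analysis was possible because the columns carry no replicate. Depth per gene is unknown, so the low blastema value of Optix has no interval.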
